A study of Mus musculus with 2 samples.

Results

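Pvalb-positive cells of the early distal convoluted tubule were examined in single-cell RNA data from the kidney cortex of 16-week-old mice. They were taken as barcodes of 1000 or more unique molecular identifiers (UMIs), 200 or more genes and at most 50% mitochondrial UMIs. Per 10000 UMIs they held 10 or more of Slc12a3, 5 or more of Pvalb and fewer than 8 of Slc12a1, and no UMI of the endothelial gene Pecam1 or the leukocyte gene Ptprc. This rule found 459 cells among 15488 kept barcodes. The PT I-PpoI library gave 373 of 5076, and the wild-type library gave 86 of 10412.

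The PT I-PpoI library came from cortex in which I-PpoI, a homing endonuclease that cuts DNA at a long recognition sequence, was expressed in epithelial cells of the proximal tubule, per the series title. The other library came from wild-type cortex. Each group had 1 library, so no test between groups could be made, and differences between animals, digestions and loadings cannot be told apart from the genotype. The promoter that drives the endonuclease, the strain, the sex and the number of mice behind each library are not given in the sources used here. The early distal convoluted tubule is not the segment named as the site of expression.

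The distal convoluted tubule follows the thick ascending limb and reabsorbs sodium chloride through the thiazide-sensitive cotransporter NCC, the product of Slc12a3. Its early segment, marked in mice by the calcium-binding protein parvalbumin (Pvalb), also reabsorbs magnesium through the channel Trpm6. Its late segment carries more of the machinery for calcium transport and, with the connecting tubule, the epithelial sodium channel. The WNK kinases Wnk1 and Wnk4, the kinase SPAK (Stk39) and the ubiquitin ligase adaptor Klhl3 set the activity of NCC.

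The cells were chosen by their Slc12a3, Pvalb, Slc12a1, Pecam1 and Ptprc values, so the levels of these genes are given as a description only. Slc12a3 per cell ranged over 10.1, 62.6 and 142.7 UMIs per 10000 (lowest, median and highest) in PT I-PpoI cells and over 11.8, 65.0 and 281.1 in wild-type cells. Pvalb ranged over 5.03, 15.1 and 49.6 in PT I-PpoI cells and over 5.02, 16.6 and 51.9 in wild-type cells. The distributions overlapped almost wholly. Near the Pvalb threshold, 19 PT I-PpoI and 4 wild-type cells had 5 to below 6, while 15 PT I-PpoI and 9 wild-type barcodes that met every other criterion had 4 to below 5. Under 3 Pvalb UMIs stood behind the call in 6 of the PT I-PpoI cells and 10 of the wild-type cells.

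The cells made up 7.35% of kept PT I-PpoI barcodes and 0.826% of kept wild-type barcodes. Among all barcodes that passed the Slc12a3, Slc12a1, Pecam1 and Ptprc criteria, 373 of 500 (74.6%) were Pvalb-positive in PT I-PpoI and 86 of 207 (41.5%) in wild type. A further 72 PT I-PpoI and 35 wild-type barcodes held Pvalb below the threshold, and 55 PT I-PpoI and 86 wild-type barcodes held none. Depth differed along with these shares, since the Pvalb-positive cells held a median of 17545 UMIs and 3701 genes in PT I-PpoI and 6173.5 UMIs and 2127 genes in wild type. Mitochondrial transcripts made up a median of 27.5% of UMIs in PT I-PpoI cells, against 17.6% in wild-type cells.

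Markers of the distal convoluted tubule that the rule did not use were read above T cells. Trpm6, the magnesium channel of this segment, was read in 20.6% of PT I-PpoI cells and 16.3% of wild-type cells after every cell was thinned to 1000 UMIs. Before thinning it was read in 85.8% of PT I-PpoI cells and 52.3% of wild-type cells. Sgms2, a sphingomyelin synthase, was read in 33.8% of thinned PT I-PpoI cells and 31.4% of thinned wild-type cells. In T cells, which should lack both genes, Trpm6 was read in none and Sgms2 in 1.30% of PT I-PpoI and 1.20% of wild-type cells at the same depth. Those T cells held a median of 4971.5 UMIs in PT I-PpoI against 2751.5 in wild type before thinning. Against Pvalb-negative Slc12a3 cells the counting intervals of both markers overlapped at that depth, so the early part of the label rests on Pvalb, which the rule used. Pvalb-negative cells read Trpm6 in 23.6% of PT I-PpoI cells (13.2 to 37.0) and 10.5% of wild-type cells (4.90 to 18.9), and Sgms2 in 23.6% of PT I-PpoI cells (13.2 to 37.0) and 30.2% of wild-type cells (20.8 to 41.1).

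The library totals were 93257620 UMIs in PT I-PpoI against 107977310 in wild type, and the Pvalb-positive cells held 6680401 of those in PT I-PpoI and 598231 of those in wild type. Of 19 barcodes kept in both libraries, 0 were Pvalb-positive in both. Doublet calling marked 1 Pvalb-positive cell in PT I-PpoI against 0 in wild type. Free RNA came to an estimated 5.36% of the UMIs of these cells in PT I-PpoI against 5.99% in wild type. Proximal tubule markers stood apart, with 12 of 12 compared genes lower in PT I-PpoI and a summed level of 78.0 CPM (UMIs per 1000000) in PT I-PpoI against 1245 CPM in wild type. Kap, their most abundant member in wild type, was read in 0.536% of PT I-PpoI and 48.8% of wild-type cells at 1000 UMIs. These shares were below the 0.649% of PT I-PpoI T cells and 73.3% of wild-type T cells, so no expression of Kap by the Pvalb-positive cells is read. Summed endothelial markers had 23.8 CPM in PT I-PpoI and 30.1 CPM in wild type, intercalated-cell markers 52.99 CPM in PT I-PpoI and 15.0 CPM in wild type, and lymphocyte markers 0.898 CPM in PT I-PpoI and 8.36 CPM in wild type. Haemoglobin genes were at 0 in both.

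**Figure D1:**
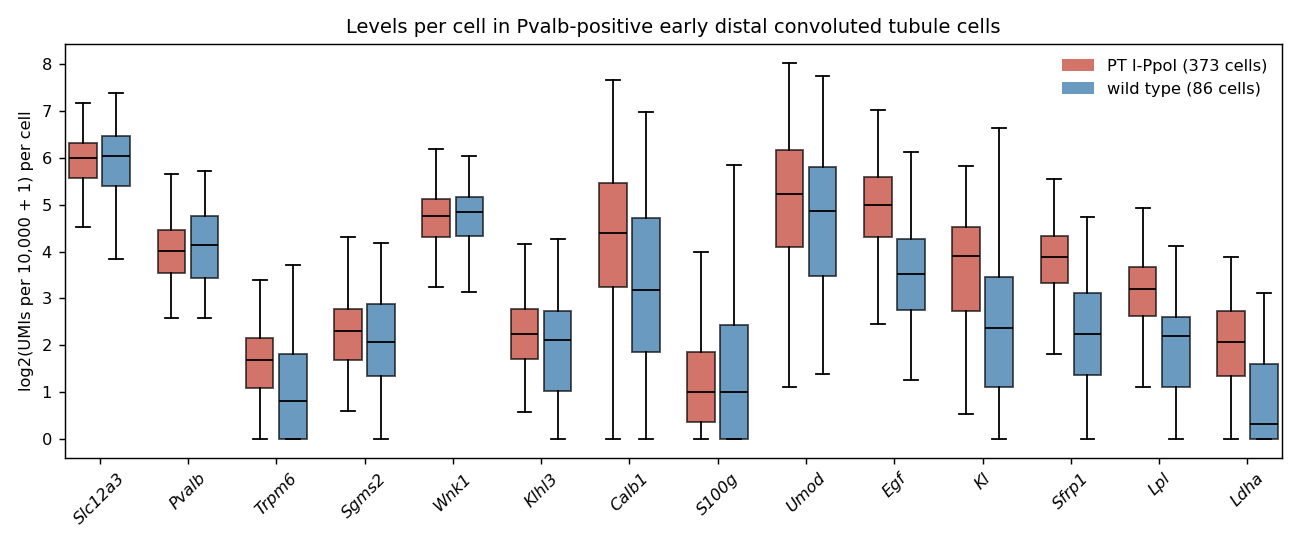
Boxes show the quartiles and whiskers the range within 1.5 box lengths of log2(UMIs per 10,000 + 1) per cell for 14 genes, PT I-PpoI (373 cells) left and wild type (86 cells) right for each gene. Slc12a3, Pvalb, Wnk1 and Klhl3 have nearly level boxes, while Egf, Kl, Sfrp1, Lpl and Ldha have higher medians in PT I-PpoI.

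Levels were compared next on UMIs summed over the cells of each library, as CPM, and ratios are log2 of PT I-PpoI over wild type with 0.5 count added. Intervals in parentheses are exact 95% intervals for counting error only, and they are too narrow where few cells hold many UMIs. Genes with 20 or more UMIs over both libraries were compared, and over these 9869 genes the median ratio was -0.11. Of these genes, 5.23% were 2-fold or more higher and 6.73% were 2-fold or more lower in PT I-PpoI. The counts of list members below are read against these shares. Scaling by trimmed means would add 0.14 to every ratio.

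The apparatus of sodium chloride cotransport lay close together in both libraries. Slc12a3 itself, on mm10 chr8:94329201-94366214, had 6562 CPM in PT I-PpoI and 7281 CPM in wild type, and Pvalb on chr15:78191114-78206400 had 1564 CPM in PT I-PpoI and 1854 CPM in wild type. Wnk1 had 2856 CPM in PT I-PpoI and 2897 CPM in wild type, a ratio of -0.02 (-0.09 to 0.05). Klhl3 had 461.8 CPM in PT I-PpoI and 479.7 CPM in wild type, with a ratio of -0.06 (-0.23 to 0.12). Wnk4 stood at 410.5 CPM in PT I-PpoI and 372.8 CPM in wild type, and Stk39 at 114.8 CPM in PT I-PpoI and 115.3 CPM in wild type. For each of these kinases and for Klhl3 the interval held 0. Ppp1r1a, an inhibitor of protein phosphatase 1 found in this segment, was lower at 1273 CPM in PT I-PpoI against 1611 CPM in wild type (ratio -0.34, -0.44 to -0.24).

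Atp1b1 and Fxyd2, subunits of the basolateral sodium pump, differed in direction. Atp1b1 had 4408 CPM in PT I-PpoI and 3181 CPM in wild type. The regulatory subunit Fxyd2 had 12181 CPM in PT I-PpoI against 14670 CPM in wild type, a ratio of -0.27 (-0.30 to -0.24). The basolateral potassium channel Kcnj10 had a ratio of 0.47 (0.21 to 0.76). Of 29 genes of cotransport and its control, 27 had enough UMIs to be compared, 2 were 2-fold higher and 0 were 2-fold lower, and the median ratio was 0.28. That median was -0.02 over 20 compared genes in cells under 10% mitochondrial UMIs and 0.12 in cells of 10% or more. The 2 genes were Slc12a7, a potassium chloride cotransporter, and Hsd11b2, which protects the mineralocorticoid receptor from glucocorticoids. Slc12a7 had 358 UMIs in PT I-PpoI against 14 in wild type, and Hsd11b2 had 247 against 4 in the same order. These are raw counts, from cells that held 6680401 UMIs in PT I-PpoI against 598231 for wild type. Wild-type Hsd11b2 was at 6.69 CPM, below the 7.87 CPM that the estimated free RNA alone would give. Without the cell that held most of it, PT I-PpoI Hsd11b2 was at 25.7 CPM, below the 28.3 CPM from free RNA. No difference is therefore read for Hsd11b2.

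Among magnesium genes, Egf stood apart over all cells. Egf, the precursor of the growth factor that stimulates Trpm6, had 3505 CPM in PT I-PpoI and 1526 CPM in wild type, a ratio of 1.20 (1.10 to 1.30). Per cell its median was 30.6 UMIs per 10000 in PT I-PpoI against 10.5 in wild type, and the interquartile ranges did not overlap, at 19.0 to 47.0 in PT I-PpoI against 5.79 to 18.2 in wild type. At 1000 UMIs it was read in 90.6% of PT I-PpoI and 58.1% of wild-type cells, against 22.1% of PT I-PpoI and 5.82% of wild-type T cells. Trpm6 itself had 261.7 CPM in PT I-PpoI and 217.3 CPM in wild type, a ratio of 0.26 (0.01 to 0.54). Cnnm2, a magnesium-responsive membrane protein, had a ratio of 0.36 (0.07 to 0.68), and the sodium-magnesium exchanger candidate Slc41a3 one of 0.15 (-0.49 to 0.94). Egf was the only one of 16 compared genes in this list of 20 that passed 2-fold, and 0 were lower. Umod, the major protein of the thick ascending limb, was read in these cells at 5303 CPM in PT I-PpoI and 3960 CPM in wild type. Kcna1 and Prl were at 0 in both libraries.

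Calcium genes held 1 of 13 compared members past 2-fold. This was Kl, which encodes the FGF23 co-receptor klotho, at 1759 CPM in PT I-PpoI and 787.3 CPM in wild type (ratio 1.16, 1.03 to 1.30). Calb1, the cytosolic calcium buffer calbindin, had 3119 CPM in PT I-PpoI and 2098 CPM in wild type, a ratio of 0.57 (0.49 to 0.66). The parathyroid hormone receptor Pth1r had a ratio of 0.90 (0.51 to 1.33) and the plasma membrane calcium pump Atp2b4 one of 0.77 (0.34 to 1.27). S100g, the small calbindin of the late segment, had 400.3 CPM in PT I-PpoI and 561.7 CPM in wild type. At 1000 UMIs S100g was read in 19.8% of PT I-PpoI and 25.6% of wild-type cells, close to the 15.6% of PT I-PpoI T cells and above the 11.6% of wild-type T cells. Trpv5, the apical calcium channel of the late segment, had 1 UMI in PT I-PpoI against 0 in wild type.

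Sodium channel genes were scarce, and single cells held much of the counts. Scnn1a, the alpha subunit, had 312.7 CPM in PT I-PpoI and 193.9 CPM in wild type. Scnn1b had 87 UMIs in PT I-PpoI against 3 in wild type, and Scnn1g had 35 UMIs in PT I-PpoI and 0 UMIs in wild type. At 1000 UMIs Scnn1b was read in 1.88% of PT I-PpoI cells and 0 of 86 wild-type cells. These shares were below the 3.25% of PT I-PpoI T cells and 0.602% of wild-type T cells. Its summed level was 13.0 CPM in PT I-PpoI and 5.01 CPM in wild type. The estimated free RNA alone would give 5.05 CPM of Scnn1b in PT I-PpoI and 1.83 CPM in wild type, and this difference was not tested. The estimated free RNA alone would give 2.88 CPM of Scnn1g, 28.3 CPM of Hsd11b2 and 62.1 CPM of Aqp2, the water channel gene, in PT I-PpoI, beside measured levels of 5.24 CPM, 36.97 CPM and 58.2 CPM. Of 11 compared members in this list of 13, 3 were 2-fold higher and 0 lower, set against 5.23% of all compared genes higher, the 3 being Scnn1b, Scnn1g and Hsd11b2. All 5 compared principal-cell markers were also higher, with a summed level of 156.7 CPM in PT I-PpoI against 26.7 CPM in wild type. A single PT I-PpoI cell of 29171 UMIs held 133 of the 389 UMIs of Aqp2, 75 of the 247 of Hsd11b2 and 9 of the 35 of Scnn1g. With that cell left out, Aqp2 had 38.3 CPM, Hsd11b2 25.7 CPM and Scnn1g 3.89 CPM in PT I-PpoI. In wild type the estimated free RNA would give 15.2 CPM of Aqp2 and 7.87 CPM of Hsd11b2, beside measured levels of 8.36 CPM and 6.69 CPM. No difference is read for Aqp2 and Hsd11b2. The part of such cells in the list's count was not tested beyond these values.

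Transcription factors of the distal nephron were near level, with a median ratio of -0.01 over 20 compared genes. Emx1, a homeobox gene of the distal tubule, had 290.1 CPM in PT I-PpoI and 372.8 CPM in wild type, a ratio of -0.36 (-0.56 to -0.16). Prox1, a homeobox factor, had a ratio of 0.26 (-0.16 to 0.74) and the nuclear receptor Esrrb one of -0.21 (-0.78 to 0.47). Sall3, a zinc-finger factor, had a ratio of -0.31 (-0.68 to 0.09). Lhx1, a LIM homeobox gene, had 230.2 CPM in PT I-PpoI and 402.9 CPM in wild type, a ratio of -0.81, but 0.02 in cells of 10% or more mitochondrial UMIs. Ehf, with 20 UMIs in PT I-PpoI against 0 in wild type, was the only one past 2-fold. The wild-type cells held 598231 UMIs against 6680401 in PT I-PpoI, too few to decide a difference for a gene this scarce. With that zero replaced by the floor count given under data processing, the list median was -0.20.

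The 12 genes furthest above 0 among those of 100 CPM or more were S100a6, Gstm1, Gpx6, Ldha, Igf1r, Mt2, Tfrc, Lpl, Sfrp1, Egf, Kl and App. Ldha, the lactate dehydrogenase subunit of glycolytic tissues, had 410.5 CPM in PT I-PpoI and 138.7 CPM in wild type, a ratio of 1.56 (1.25 to 1.90). Tfrc, the transferrin receptor for iron uptake, had 526.9 CPM in PT I-PpoI and 217.3 CPM in wild type, a ratio of 1.27 (1.02 to 1.54). Sfrp1, a secreted Wnt antagonist, had 1534 CPM in PT I-PpoI and 655.3 CPM in wild type, a ratio of 1.22 (1.08 to 1.38). Per cell, the median of Sfrp1 was 13.9 UMIs per 10000 in PT I-PpoI against 3.74 in wild type, and the interquartile ranges ran from 8.98 to 19.2 in PT I-PpoI and from 1.59 to 7.63 in wild type without overlap. Lpl, lipoprotein lipase, had 899.8 CPM in PT I-PpoI and 381.1 CPM in wild type.

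Mt2, a metallothionein that binds zinc and copper, had 452.5 CPM in PT I-PpoI and 178.9 CPM in wild type. Gpx6, of the glutathione peroxidase family, had 229.6 CPM in PT I-PpoI and 70.2 CPM in wild type, a ratio of 1.69 (1.27 to 2.19). Igf1r, the receptor for insulin-like growth factor 1, had a ratio of 1.36 (0.85 to 1.99), and App, the amyloid precursor protein, had one of 1.12 (0.81 to 1.45). S100a6 and Gstm1 rested largely on a single PT I-PpoI cell, which held 564 of 718 UMIs of S100a6 and 422 of 674 UMIs of Gstm1. That cell, of 32237 UMIs, also held 59 of 67 Krt19 UMIs, 109 of 121 Sprr1a UMIs and 29 of 31 Krt5 UMIs, all genes of stressed or stratified epithelia. With the cell of most UMIs left out of each library, the ratio was 2.47 for S100a6 and 0.86 for Gstm1. S100a6 then had 23.1 CPM in PT I-PpoI and 3.34 CPM in wild type, below the 42.4 CPM in PT I-PpoI and 15.6 CPM in wild type that the estimated free RNA alone would give, so no difference is read from the rest of its UMIs.

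These differences were set beside other distal cells of the same libraries. In Pvalb-negative Slc12a3 cells the ratio of Ldha was -0.34, with 124.9 CPM in PT I-PpoI and 158.3 CPM in wild type. In thick ascending limb cells it was -0.24, with 108.5 CPM in PT I-PpoI and 127.9 CPM in wild type. The ratio of Sfrp1 was 0.96 in Pvalb-negative Slc12a3 cells and 0.26 in the thick ascending limb, and that of Tfrc was 0.84 and -0.14 in the same classes. Egf had a ratio of 0.57 in Pvalb-negative Slc12a3 cells and 0.45 in the thick ascending limb. Whether these ratios differ between the classes could not be tested.

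Of 17 compared glycolysis genes, Ldha among them, 2 were 2-fold higher and 0 lower, and the median ratio was 0.39. Pkm, pyruvate kinase, had 1260 CPM in PT I-PpoI and 794.0 CPM in wild type, a ratio of 0.67 (0.53 to 0.80). Pfkl, a phosphofructokinase, had 92.5 CPM in PT I-PpoI and 48.5 CPM in wild type. Ldhb, the lactate dehydrogenase subunit of oxidative tissues, had 2438 CPM in PT I-PpoI and 3176 CPM in wild type, a ratio of -0.38. Nuclear genes of oxidative phosphorylation were level, at a median of -0.02 over 45 compared genes with 0 past 2-fold in either direction.

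**Figure D2:**
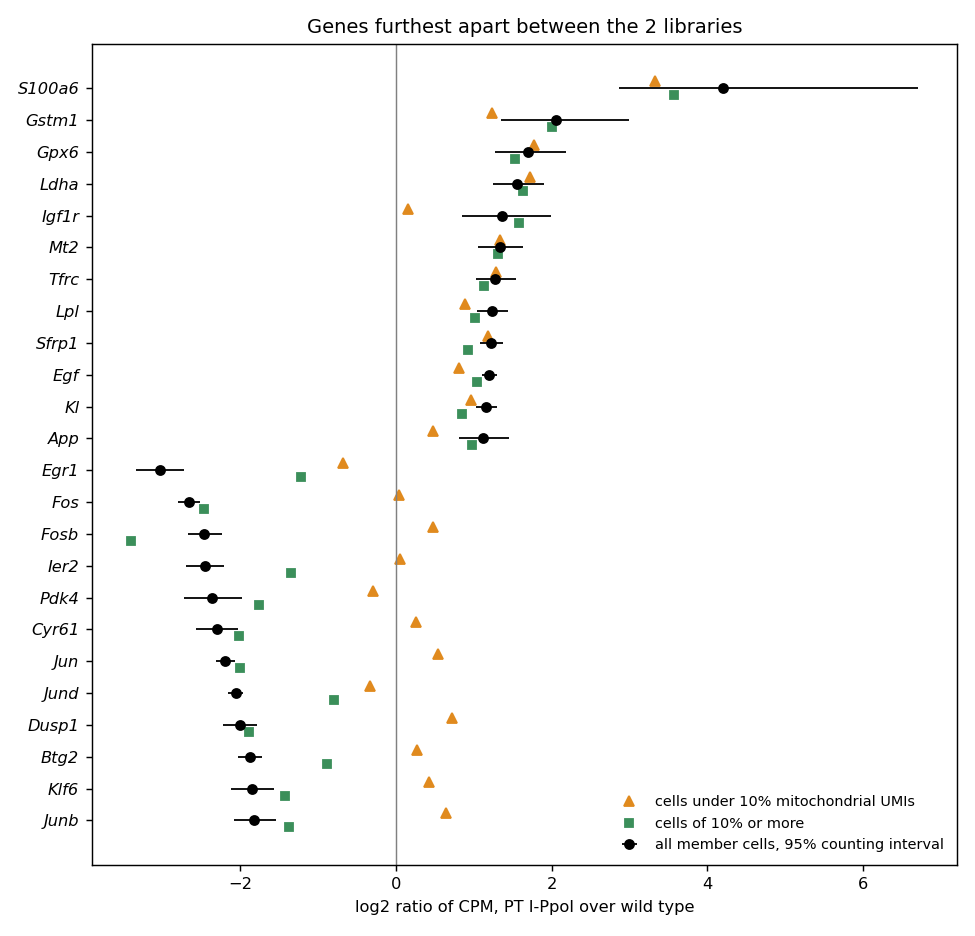
Black points are log2 ratios of CPM (PT I-PpoI over wild type) of the 24 genes named by rule, with 95% counting intervals, and triangles and squares are the same ratio in cells under 10% and of 10% or more mitochondrial UMIs. The 12 higher genes stay right of 0 in both sets of cells, while 9 of the 12 lower genes cross to the right in cells under 10%. In cells under 10%, 7 of the 12 higher genes are past 2-fold. The counting intervals of Igf1r, App, Gstm1 and S100a6 in those cells, not drawn, hold 0.

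The genes furthest below 0 were mostly immediate early genes, which are transcribed within minutes of stimulation or of tissue dissociation. They were Egr1, Fos, Fosb, Ier2, Pdk4, Cyr61, Jun, Jund, Dusp1, Btg2, Klf6 and Junb. Fos, a subunit of the transcription factor AP-1, had 175.6 CPM in PT I-PpoI and 1103 CPM in wild type, a ratio of -2.65 (-2.79 to -2.51). Jun, its partner, had 312.1 CPM in PT I-PpoI and 1419 CPM in wild type, a ratio of -2.19 (-2.30 to -2.07). The growth-response factor Egr1 had the lowest ratio of the 12, -3.02 (-3.33 to -2.71). Of 27 compared genes in the immediate early list of 34, 18 were 2-fold lower and 0 higher, with a median of -1.77. Pdk4, a kinase that restrains pyruvate oxidation and is no member of that list, had 29.8 CPM in PT I-PpoI and 152.1 CPM in wild type.

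Promoters of Fos and Fosb are shown because both genes were among those furthest below 0. Each runs from 250 bases before the start of transcription to 50 bases after it, in RefSeq on GRCm38.p6. Capitals mark the TATA box letters TATAAA and the core of the cyclic AMP response element, TGACG, on either strand. The Fos promoter lies at chr12:85473640-85473939 on the plus strand and the Fosb promoter at chr7:19309996-19310295 on the minus strand.
Fos: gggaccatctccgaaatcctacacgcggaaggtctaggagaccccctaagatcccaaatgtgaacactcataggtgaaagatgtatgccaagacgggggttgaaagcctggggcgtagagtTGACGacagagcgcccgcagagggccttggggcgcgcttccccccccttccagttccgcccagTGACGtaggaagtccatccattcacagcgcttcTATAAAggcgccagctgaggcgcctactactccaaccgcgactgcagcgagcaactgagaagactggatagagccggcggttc
Fosb: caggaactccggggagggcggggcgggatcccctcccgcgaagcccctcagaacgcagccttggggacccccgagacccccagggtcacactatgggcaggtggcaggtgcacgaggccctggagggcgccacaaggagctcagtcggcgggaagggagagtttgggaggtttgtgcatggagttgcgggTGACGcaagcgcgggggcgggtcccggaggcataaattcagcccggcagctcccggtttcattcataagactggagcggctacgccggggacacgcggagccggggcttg
Fos held TATAAA once and TGACG in 2 places, and Fosb held TGACG once. The Jun promoter at chr4:95052173-95052472 held neither. TGACG occurred in 14 of the 28 immediate early promoters listed and in 5681 of the 27025 promoters of all genes (21.0%). TATAAA occurred in 7 of the 28 and in 14.2% of the 27025. A match of these letters is a description of the sequence and not of binding.

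Immediate early transcripts followed the mitochondrial share of the cell. Cells under 10% mitochondrial UMIs, a boundary chosen after the values were seen, made up 44 of 373 in PT I-PpoI (11.8%, 8.70 to 15.5) and 36 of 86 in wild type (41.9%, 31.3 to 52.99). In these cells the summed immediate early level was 23768 CPM in PT I-PpoI and 19990 CPM in wild type. In cells of 10 to 20% it was 2747 CPM in PT I-PpoI and 8458 CPM in wild type, in cells of 20 to 30% it was 1374 CPM in PT I-PpoI and 1788 CPM in wild type, and in cells of 30 to 50% it was 1126 CPM in PT I-PpoI and 1026 CPM in wild type. Cells under 10% held 47.3% of the immediate early UMIs and 5.13% of all UMIs of the PT I-PpoI cells, against 80.2% of the immediate early UMIs and 38.2% of all UMIs of the wild-type cells. The part of this split in the ratios over all cells can be read from the values within each range.

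Within the cells under 10%, the ratio of Fos was 0.038, of Jun 0.55, of Junb 0.64 and of Dusp1 0.73, and the median of the immediate early list was 0.48 over 25 compared genes. Egr1 at -0.68, Jund at -0.33 and Pdk4 at -0.29 kept a negative sign. In cells of 10% or more, Fos was at -2.47 and Fosb at -3.39, and all 12 genes stayed negative. Over all genes compared in the cells under 10%, 4.17% were 2-fold higher and 3.48% lower, against 9.59% higher and 5.8% lower in cells of 10% or more. Malat1, a nuclear RNA, moved with the same split, at 80867 CPM in PT I-PpoI and 114182 CPM in wild type under 10%, and 15801 CPM in PT I-PpoI and 15086 CPM in wild type at 30 to 50%. Ldha, Tfrc, Sfrp1, Gpx6 and Mt2 were higher in PT I-PpoI in each of the 4 ranges of mitochondrial share. Egf was level in cells of 10 to 20%, at 3009 CPM in PT I-PpoI and 3001 CPM in wild type. It was higher in PT I-PpoI in the other ranges, with a ratio of 0.81 in cells under 10%. Ldha had 510.2, 391.5, 446.5 and 359.1 CPM from the lowest range to the highest in PT I-PpoI, and 153.2, 173.8, 133.0 and 101.3 CPM in wild type.

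The cells under 10% were themselves of different kinds. In PT I-PpoI, 15 of the 44 had under 2% mitochondrial UMIs, a further boundary set after the values were seen, and wild type had 0 such cells. These 15 held a median of 1544 UMIs, a Slc12a3 level of 2373 CPM, an immediate early level of 1186 CPM and 855.3 CPM of Malat1. The 29 PT I-PpoI cells of 2 to 10% held 26436 CPM of immediate early transcripts and 90321 CPM of Malat1, against 19990 CPM of immediate early transcripts and 114182 CPM of Malat1 in the 36 wild-type cells. Fos in these cells was 2816 CPM in PT I-PpoI and 2455 CPM in wild type. The share of cells under 10% was 12.7% in PT I-PpoI against 12.8% in wild type among Pvalb-negative Slc12a3 cells, and 6.71% in PT I-PpoI against 4.53% in wild type in the thick ascending limb. The summed immediate early level of all Pvalb-negative Slc12a3 cells was 3060 CPM in PT I-PpoI and 5180 CPM in wild type, with a Fos ratio of -1.50. In cells of 10% or more of that class it was 1975 CPM in PT I-PpoI and 2997 CPM in wild type. In the thick ascending limb it was 1797 CPM in PT I-PpoI and 1394 CPM in wild type, with a Fos ratio of 0.37. Differences between these classes were not tested.

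**Figure D3:**
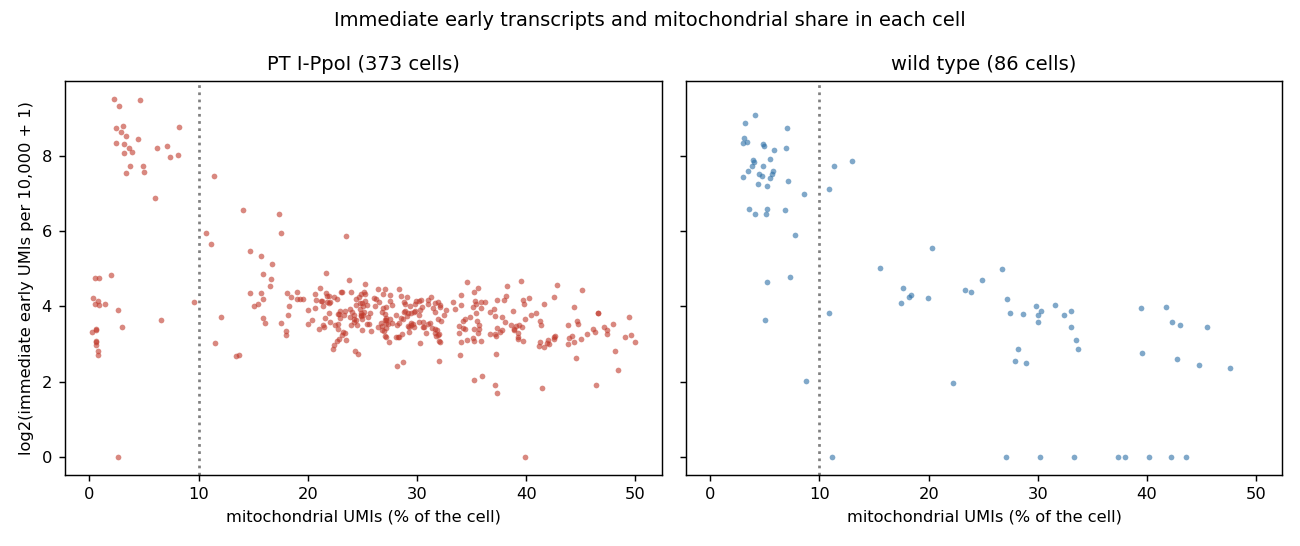
Each point is 1 Pvalb-positive cell, with its mitochondrial share in percent on the x axis and log2(immediate early UMIs per 10,000 + 1) on the y axis, PT I-PpoI (373 cells) left and wild type (86 cells) right. The dotted line is at 10%; high immediate early levels lie mostly left of it in both libraries, and a group of 15 PT I-PpoI cells near 0% has low levels.

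Mitosis genes were read together in a few PT I-PpoI cells. Reads of 3 or more of 12 mitosis genes were found in 8 of 373 PT I-PpoI cells (2.14%, 0.930 to 4.18) and in 0 of 86 wild-type cells. Since the criterion depends on depth and only 21 of the 86 wild-type cells had the 8946 UMIs of the shallowest such cell, against 303 of the 373 PT I-PpoI cells, no limit on the wild-type share and no difference is read from these counts. The 8 cells held 92 of the 101 UMIs of Mki67, a proliferation marker, and 82 of the 85 of Top2a, the topoisomerase of dividing cells. Both genes had 0 UMIs in wild type. The 8 cells had 8946 to 44127 UMIs, 20.1 to 37.3% mitochondrial UMIs, Slc12a3 at 10.1 to 61.8 and Pvalb at 5.59 to 25.5 per 10000, and 0 were called doublets. In the thick ascending limb, 9 of 1386 PT I-PpoI cells and 1 of 751 wild-type cells met the same criterion. Of 19 compared cell cycle genes, 13 were 2-fold higher, beside 5.23% of all compared genes. The median was 2.13, or 0.66 with the 9 genes at 0 in wild type set to a floor of 3 counts in that library. Those 9 genes reached the minimum of 20 UMIs through PT I-PpoI alone, so no difference is read from the count of 13.

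Lists that bear on DNA breaks were compared in the same way. Targets of p53 had a median ratio of -0.25 over 22 compared genes, with 0 past 2-fold higher and 2, Btg2 and Phlda3, past 2-fold lower, though Btg2 had a ratio of 0.27 in cells under 10% mitochondrial UMIs. Cdkn1a, the cell cycle inhibitor p21, had 36.1 CPM in PT I-PpoI and 38.4 CPM in wild type, a ratio of -0.12 (-0.71 to 0.59). Mdm2, which degrades p53, had 35.9 CPM in PT I-PpoI and 31.8 CPM in wild type, and the stress cytokine Gdf15 had 12.4 CPM in PT I-PpoI and 15.0 CPM in wild type. All 3 intervals held 0. End joining and break repair genes had a median of 0.07 over 24 compared genes, with 3 higher and 2 lower. In cells of 10% or more mitochondrial UMIs, 5 of 23 compared repair genes were 2-fold higher and 3 lower. Of 22 compared p53 targets, 3 were higher and 1 lower in those cells. Over all genes compared there, 9.59% were higher and 5.8% lower, and these list counts were not tested.

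**Figure D4:**
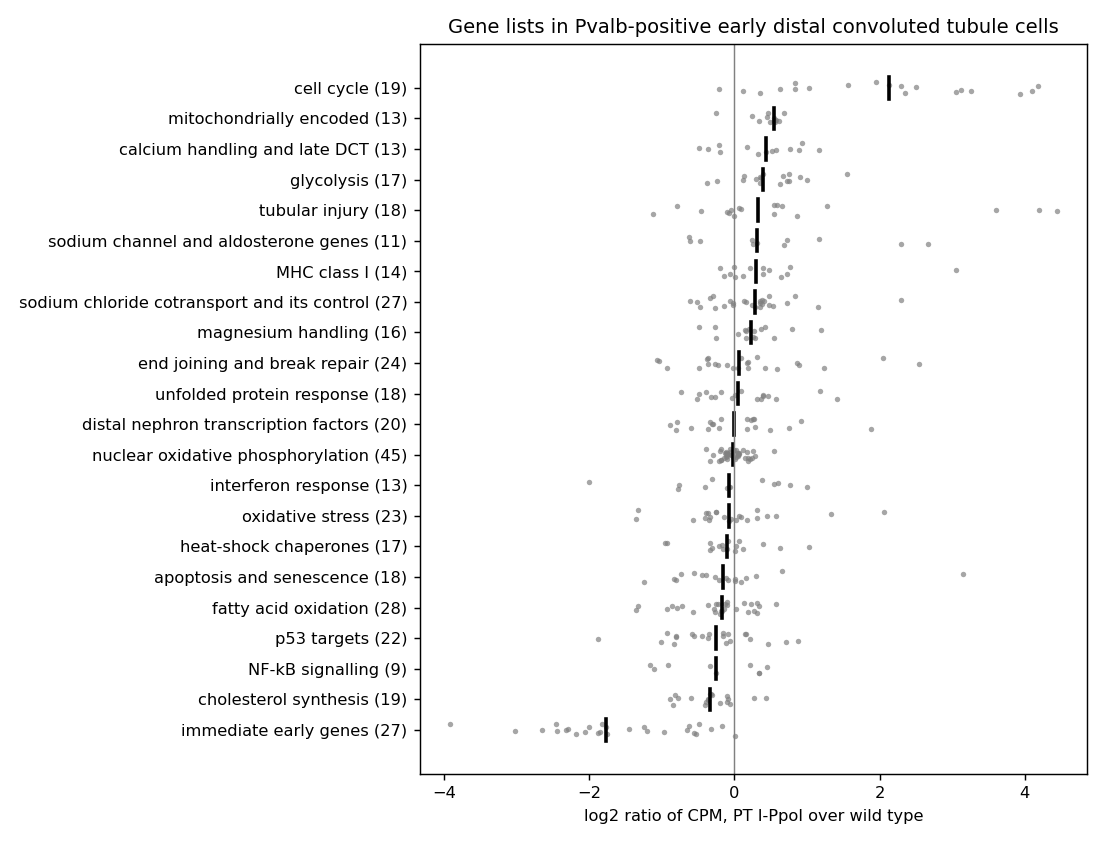
Grey points are log2 ratios of CPM (PT I-PpoI over wild type) of the compared members of each gene list that had 9 or more, cell type markers aside, with their number in parentheses, and black bars are list medians. Cell cycle genes lie highest at a median of 2.13 and immediate early genes lowest at -1.77, while the other lists shown lie between -0.34 and 0.54.

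Pvalb-positive cells were then set against Pvalb-negative Slc12a3 cells within each library, 373 against 55 cells in PT I-PpoI and 86 against 86 in wild type. The direction was shared by both libraries for the genes named, since the rule asked for it. Background shares of genes past 2-fold were 5.36% higher and 5.26% lower of 9894 genes in PT I-PpoI, and 4.93% higher and 2.62% lower of 5613 in wild type. Free RNA was estimated at 27.0% of the UMIs of Pvalb-negative cells in PT I-PpoI against 12.3% in wild type.

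Among genes that reached 100 CPM in both libraries, ranked by the library of the smaller ratio, Wfdc15b, which encodes a secreted WAP-domain protein, was furthest above the Pvalb-negative cells. It had 2333 CPM in Pvalb-positive and 489.8 CPM in Pvalb-negative cells of PT I-PpoI, a ratio of 2.25 (2.10 to 2.41), and 1834 CPM in Pvalb-positive and 402.5 CPM in Pvalb-negative cells of wild type, a ratio of 2.18 (1.97 to 2.41). Defb1, an epithelial beta-defensin, had 6537 CPM in Pvalb-positive and 3190 CPM in Pvalb-negative cells of PT I-PpoI, and 6243 CPM in Pvalb-positive and 2679 CPM in Pvalb-negative cells of wild type. Ckb, the creatine kinase of brain and epithelia, had ratios of 1.43 in PT I-PpoI against 1.24 in wild type. Tfrc had ratios of 1.58 in PT I-PpoI against 1.14 in wild type, and Egf of 1.59 in PT I-PpoI against 0.96 in wild type. The noncoding RNA Pantr1, the secreted protein gene Aebp1, the RNA-decay factor Zfp36l2, the HNF1 cofactor Pcbd1 and the autophagy gene Gabarapl1 lay between 0.91 and 1.17 in both libraries, though Aebp1 was at -0.29 in PT I-PpoI when cells were thinned to 1000 UMIs.

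Of the magnesium list of 20 genes, 3 of 16 compared genes were 2-fold higher in the Pvalb-positive cells of PT I-PpoI and 2 of 12 in those of wild type, with 0 lower in either library. They were Slc41a3, Egf and Umod in PT I-PpoI and Slc41a3 and Fxyd2 in wild type. Of the 24 distal transcription factors, 3 of 20 compared genes were 2-fold higher in PT I-PpoI and 2 of 14 in wild type, again with 0 lower. They were Prox1, Esrrb and Gata2 in PT I-PpoI and Prox1 and Esrrb in wild type. Trpm6 was within 2-fold, with ratios of 0.66 in PT I-PpoI against 0.93 in wild type, and in the thinned PT I-PpoI cells it was read in no larger a share of Pvalb-positive than of Pvalb-negative cells. Cnnm2 had ratios of 0.51 in PT I-PpoI against 0.81 in wild type, and Fxyd2 of 0.78 in PT I-PpoI against 1.08 in wild type. Slc41a3 had ratios of 2.86 in PT I-PpoI against 3.48 in wild type, with 241 UMIs in the Pvalb-positive cells of PT I-PpoI and 19 in those of wild type. Prox1 had ratios of 1.68 in PT I-PpoI against 2.23 in wild type, and Esrrb of 1.31 in PT I-PpoI against 1.75 in wild type. Sgms2 was near level between the classes, with ratios of 0.15 in PT I-PpoI against -0.13 in wild type. Slc12a3 had ratios of -0.08 in PT I-PpoI against 0.17 in wild type, and Wnk1 of -0.26 in PT I-PpoI against -0.03 in wild type. Ldha had ratios of 1.71 in PT I-PpoI against -0.19 in wild type.

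S100g was furthest below by the same ranking. It had 400.3 CPM in Pvalb-positive and 17304 CPM in Pvalb-negative cells of PT I-PpoI, a ratio of -5.43 (-5.49 to -5.37), and 561.7 CPM in Pvalb-positive and 23463 CPM in Pvalb-negative cells of wild type, a ratio of -5.38 (-5.55 to -5.23). Klk1, tissue kallikrein of the late segment and connecting tubule, had ratios of -2.73 in PT I-PpoI against -3.77 in wild type. Slc8a1, the sodium-calcium exchanger of the basolateral membrane, had ratios of -1.57 in PT I-PpoI against -1.87 in wild type. Ltc4s, leukotriene C4 synthase, had ratios of -1.75 in PT I-PpoI against -1.96 in wild type. Wfdc2, a secreted WAP-domain protein, had ratios of -1.66 in PT I-PpoI against -1.77 in wild type. The chaperone clusterin (Clu), the mitochondrial carrier Slc25a30, the transcriptional inhibitor Id2 and the collagen gene Col18a1 lay between -1.80 and -1.02, though Slc25a30 was at 0.78 in PT I-PpoI after the same thinning.

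**Figure D5:**
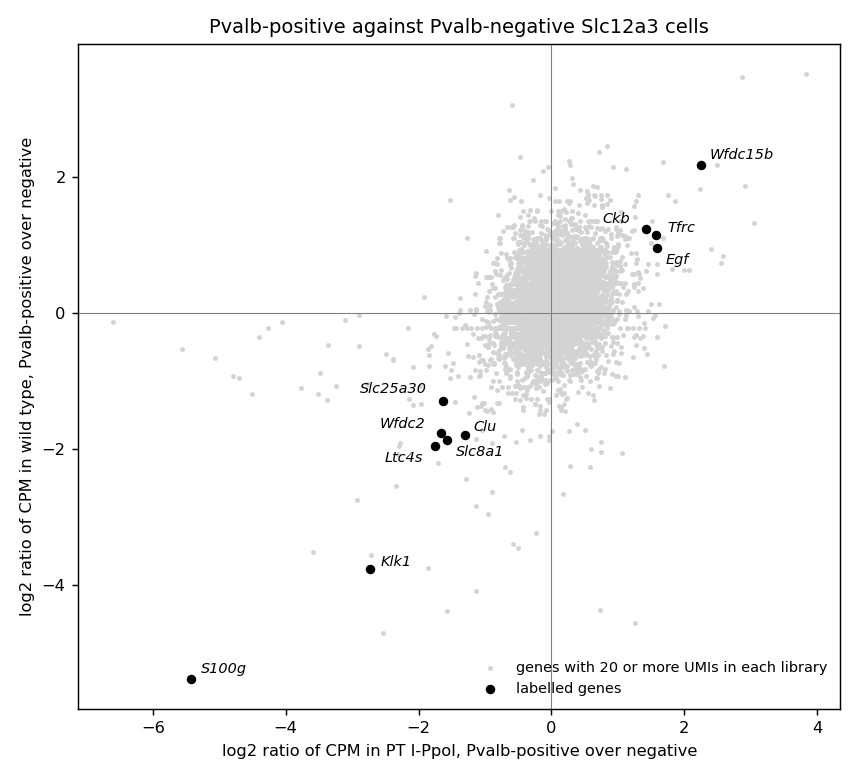
The x axis is the log2 ratio of CPM of Pvalb-positive over Pvalb-negative Slc12a3 cells in PT I-PpoI and the y axis the same ratio in wild type, with 1 grey point per gene and black points for the labelled genes. Of the labelled genes S100g and Klk1 lie furthest to the lower left, and Wfdc15b lies at 2.25 and 2.18 on the upper right.

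Within the Pvalb-positive cells, the summed levels of S100g and Klk1 ran against the Pvalb level in both libraries. Cells were split by Pvalb into 3 sets of near equal number, and from the lowest set to the highest S100g had 710.6, 278.9 and 192.8 CPM in PT I-PpoI and 1243, 272.7 and 117.5 CPM in wild type. Klk1 had 1828, 1246 and 1122 CPM in PT I-PpoI and 1794, 705.2 and 386.1 CPM in wild type. Scnn1b had 23.3, 11.2 and 3.51 CPM in PT I-PpoI, with 14.5, 0 and 0 CPM in wild type, where it had 3 UMIs in all. Calb1 ran the other way, at 2863, 3162 and 3357 CPM in PT I-PpoI and 1117, 2454 and 2809 CPM in wild type. Trpm6 had 229.8, 278.9 and 277.1 CPM in PT I-PpoI and 174.1, 268.0 and 207.0 CPM in wild type. The median mitochondrial share moved with Pvalb, at 29.8, 27.4 and 24.5% in PT I-PpoI and 27.1, 17.5 and 9.09% in wild type, and its part in these orders was not tested.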

How the data were processed

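The authors deposited raw UMI counts of all barcodes, in 1 matrix per library, made from 10x 3' v3.1 libraries of digested cortex. Cell Ranger 3.1, Seurat 3 and mm10 are named in the submitters' processing notes, while Cell Ranger 4 is named per the file headers, a difference that was not resolved. From these counts, barcodes were filtered and the cells taken by the rule in the report. The cells and gene lists were chosen with earlier results of these data known. UMIs were summed per library and scaled to CPM, since cells of 1 library are not replicates. Comparison genes had 20 or more UMIs over both libraries. A zero was replaced by a floor of 3 counts per library to bound a fold. Ratios carry exact conditional binomial intervals and shares Clopper-Pearson intervals at 95%, both for counting error only. The script was tested on simulated data. Free RNA was profiled in barcodes of 100 or fewer UMIs. Scrublet (scanpy 1.11.5, expected rate 0.06) called 58 barcodes (1.14%) in PT I-PpoI and 312 barcodes (3.00%) in wild type, which were left out only as an alternative. TMM factors came from edgeR 4.0.16 with no test.

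The 12 genes each way between libraries were those furthest from 0 among genes that reached 100 CPM and 20 UMIs where they were higher. They were 2-fold or more apart, of the same sign in cells of 2000 UMIs or more, and of the same sign after subtraction of free RNA with most UMIs left. For Pvalb-positive against Pvalb-negative cells, genes that reached 100 CPM in 1 class in both libraries, with 1 sign, were ranked by the nearer library, 10 each way. Mitochondrially encoded, ribosomal, haemoglobin, immunoglobulin, sex-linked and unnamed genes were left out of both. A few genes of the rules and lists are not reported here. Coordinates came from GENCODE M21 and promoters from RefSeq on GRCm38.p6. T cells were barcodes with Cd3e or Cd3g read and no other criterion, and thick ascending limb cells were gated on Slc12a1.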

Additional observations from a re-analysis of the deposited data

How the results depend on the processing

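No paired analysis was possible because each group has 1 library, and for the same reason no replicate could be left out. With the gate made stricter (Slc12a3 at 20, Pvalb at 10 and Slc12a1 at 4), the Pvalb-positive share was 5.44% of kept PT I-PpoI barcodes and 0.567% of kept wild-type barcodes, and 58.97% of gated Slc12a3 cells in PT I-PpoI and 32.4% of those in wild type. With a mitochondrial limit of 30% the share was 5.99% of kept barcodes in PT I-PpoI, and 79.2% of gated Slc12a3 cells in PT I-PpoI and 51.3% of those in wild type. The 516 genes 2-fold higher in PT I-PpoI were 149 among genes of 100 or more UMIs, 818 with means of per-cell levels, 163 in cells under 10% mitochondrial UMIs and 931 in cells of 10% or more. The 664 genes 2-fold lower were 3865 with no minimum of UMIs, 150 at 100 or more UMIs and 136 in cells under 10%. The median of all genes, -0.11, was 0.035 with TMM scaling, 0.027 with median-of-ratios scaling, -0.31 with no minimum, 0.054 with mitochondrial genes out of the totals and 0.021 in cells under 10%. The median of the sodium chloride cotransport list, 0.28, was 0.42, 0.41 and 0.44 under the first, second and mitochondrial changes, and 0.45 without the top cell of each gene. The same list median was lower within both sets of cells, at -0.02 under 10% and 0.12 at 10% or more. In cells under 10% the immediate early median was 0.48, and the ratio was 0.038 for Fos, 0.48 for Fosb, 0.048 for Ier2, 0.26 for Cyr61, 0.55 for Jun, 0.73 for Dusp1, 0.27 for Btg2, 0.43 for Klf6 and 0.64 for Junb. Thinned to 1000 UMIs, Pvalb-positive over negative in PT I-PpoI was -0.29 for Aebp1 and 0.78 for Slc25a30. The splits at 10% and the top-cell setting were chosen after seeing the data, and the cause of the other changes was not tested.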

Other observations

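Other gene groups were close to level over all Pvalb-positive cells. Cholesterol synthesis had a median ratio of -0.34 over 19 compared genes with 0 past 2-fold, and Idi1, an isomerase of that pathway, had 85.9 CPM in PT I-PpoI and 153.8 CPM in wild type. Fatty acid oxidation had -0.18 over 28 compared genes, interferon response -0.07 over 13, heat-shock chaperones -0.10 over 17 and the unfolded protein response 0.05 over 18. In cells under 10% mitochondrial UMIs the chaperone median was 0.66 over 15 compared genes. Of these, 3 were 2-fold higher and 0 lower, against 4.17% higher and 3.48% lower over all genes. The other medians there were -0.04 for fatty acid oxidation, 0.12 for cholesterol synthesis and 0.50 for the unfolded protein response. Among chaperones, Hspa1b, an inducible HSP70, had 141.8 CPM in PT I-PpoI and 68.5 CPM in wild type, a ratio of 1.03 (0.60 to 1.54), with 280.0 CPM in the free RNA of PT I-PpoI and 41.0 CPM in that of wild type. MHC class I genes had a median of 0.30 over 14 compared genes, and H2-K1 had 133.4 CPM in PT I-PpoI and 95.3 CPM in wild type.

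Tubular injury genes had a median of 0.32 over 18 compared genes, with 4 past 2-fold higher. These were S100a6, Krt19, Sprr1a and Vim, of which the first 3 had most of their UMIs in the single PT I-PpoI cell described above. Krt19 and Sprr1a had 0 UMIs in wild type, and Vim had 40 UMIs in PT I-PpoI against 1 in wild type. Havcr1, the injury marker KIM-1, had 0 UMIs in both libraries. Lcn2 had 7 UMIs in PT I-PpoI against 0 in wild type. These are raw counts, from cells that held 6680401 UMIs in PT I-PpoI against 598231 for wild type. No difference is read from them or from the count of 4 genes. Apart from these, Gpx3, a secreted glutathione peroxidase of the tubule, had 258.8 CPM in PT I-PpoI and 646.9 CPM in wild type. Mcl1, an inhibitor of apoptosis, had 51.0 CPM in PT I-PpoI and 120.4 CPM in wild type. Neither gene was set beside its level in free RNA, so no difference within the Pvalb-positive cells is read for them.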
